A study of Homo sapiens with 4 samples.

Results

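Nucleoporin genes, together with genes of the importins, transportins and exportins, were examined in MDA-MB-231 cells treated with MGH-CP1. Members were the protein-coding rows of the deposited table whose symbol follows the nucleoporin (NUP, NUPL), karyopherin (KPNA, KPNB1), transportin (TNPO), importin (IPO) or exportin (XPO) naming pattern. This gave 47 genes of 48162 in the table, 23 nucleoporins and 24 transport receptors. MDA-MB-231 is an established human cell line from a triple-negative breast cancer. The groups compared were vehicle and MGH-CP1 at 10 µM, each exposed for 24 h and each with 2 poly(A)-selected RNA libraries (4 in all). Both groups are the same line, and the series title describes MGH-CP1 as a TEAD palmitoylation inhibitor. Whether the 2 libraries of a group came from separate cultures is not given in the sources used here, so each p-value below covers the spread between libraries alone, and that spread may be technical.

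Nuclear pore complexes are the channels through which proteins and RNA pass between nucleus and cytoplasm. Their scaffold is built of outer rings of Y-shaped complexes and an inner ring, and the channel is filled by nucleoporins rich in phenylalanine-glycine repeats. Importins carry cargo inwards, with importin alpha recognising the nuclear localisation signal and importin beta carrying the pair through the pore, and exportins carry cargo outwards. Direction is set by the small GTPase Ran, which is loaded with GTP in the nucleus and hydrolyses it in the cytoplasm. Cells dividing actively must build new pores in each cell cycle.

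Expression is given as FPKM, that is reads divided by the gene's length and by the library's total, so levels of different genes can be compared. Reads assigned to genes, as recovered from the FPKM values, numbered 16790645 to 18485701 per library. Changes are log2 fold changes of FPKM + 1, MGH-CP1 over vehicle, with the standard error of the limma fit, and a gene was called where its Benjamini-Hochberg adjusted p over all 11790 tested genes was under 0.05. Among all tested genes, 25.1% were called lower and 20.0% higher (2956 and 2355 genes), or 45.0% in either direction. This split depended on scaling, with 2413 lower and 3004 higher after scaling by the upper quartile. Cell identity was checked on fixed markers. VIM, CD44, KRT18, AXL and CAV1 were at 59.4 FPKM or more in every library, PGR was listed at 0 in each, and ESR1 and CDH1 were at 0.895 FPKM or less. ERBB2, counted low in this line, was at 24.5 to 26.3 FPKM. Of markers for other cell types, PTPRC, CD3E and CDH5 were at 0.0895 FPKM or less, and the fibroblast genes COL1A1 and PDGFRB at 0.984 to 2.79 FPKM, and PECAM1 had no row by that symbol.

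Transcripts of the tested nucleoporins named NUP or NUPL and of most transport receptors were lower with MGH-CP1. Of the 47 genes, 43 had a mean of at least 1 FPKM and were tested. With limma, 38 of these 43 fell, none rose, and 5 did not pass. The share called lower was 88.4%, beside 25.1% of all tested genes, and 20.0% of all tested genes rose (45.0% moved either way). By an unadjusted p under 0.05, 1 member was higher, and voom on the reads recovered from the FPKM values likewise called 38 lower and 0 higher. The median log2 fold change of the 43 was -0.54, beside -0.02 for all tested genes. Both MGH-CP1 libraries lay under both vehicle libraries for 39 of the 43, as they did for 39.4% of all tested genes, and lay over both for 3 (KPNA5, KPNA6 and IPO13), as for 34.7% of all. Falls of 0.5 or more on the log2 scale were called for 24 members, beside 11.1% of all tested genes. All 21 tested nucleoporins fell, with MGH-CP1 levels between 50.4% and 85.0% of vehicle. Receptors were less uniform: 17 of 22 fell, and the remaining 5 were KPNA1, KPNA5, KPNA6, IPO13 and TNPO2. In bulk RNA, fewer cells holding a transcript and less of it per cell cannot be told apart. In summed FPKM, the 23 nucleoporins went from 457 and 477 with vehicle to 294 and 303 with MGH-CP1, and the 24 receptors from 827 and 845 to 599 and 607.

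**Figure D1:**
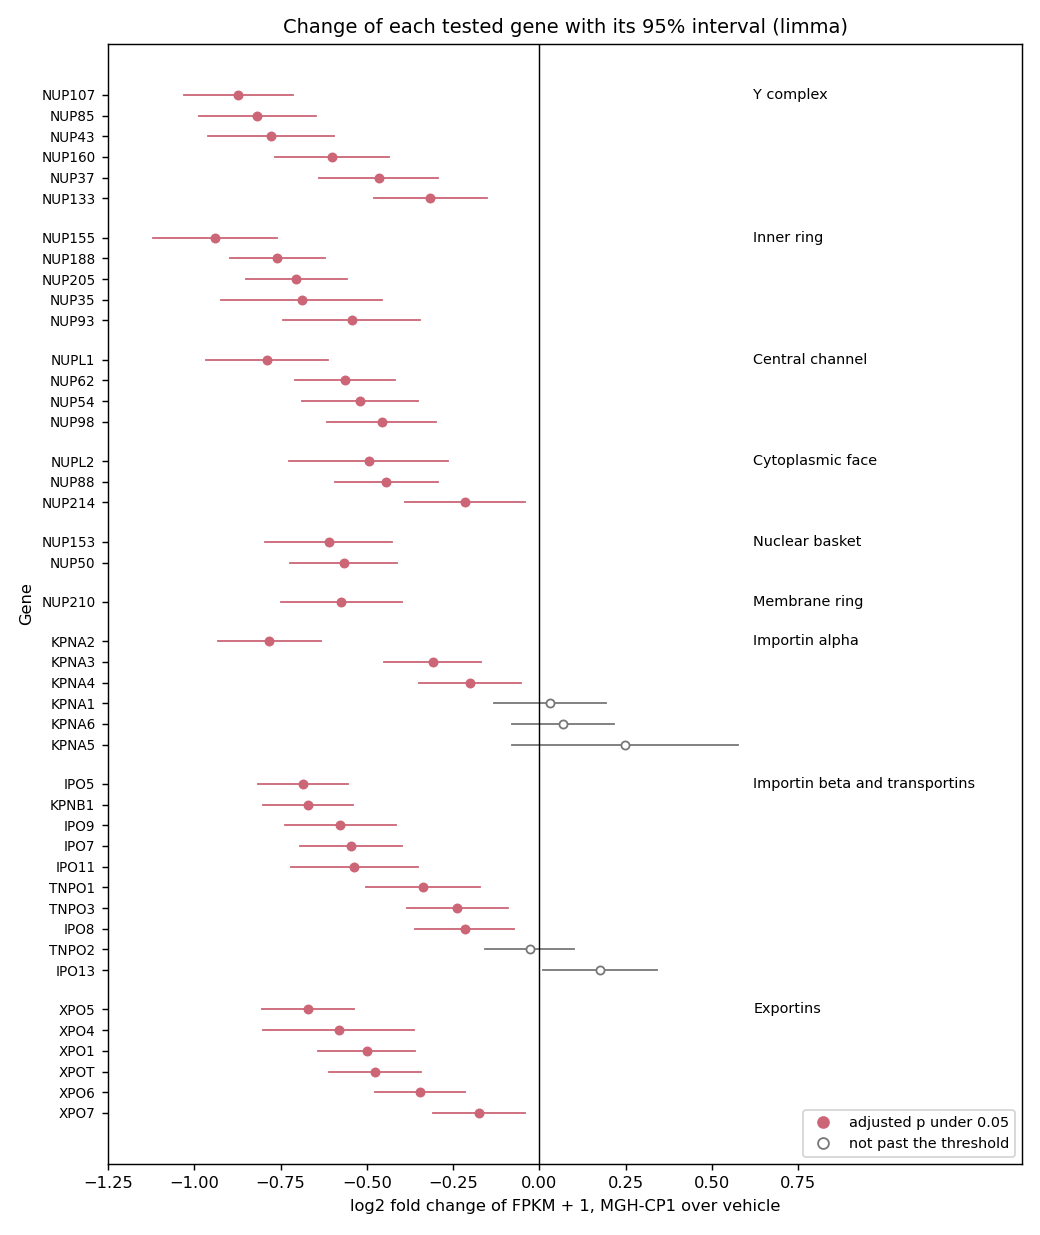
Log2 fold change of FPKM + 1 (horizontal axis, MGH-CP1 over vehicle) of each of the 43 tested genes, ordered by role, with the 95% interval from limma. Filled points passed an adjusted p under 0.05. All 21 nucleoporins and all 6 exportins lie to the left of 0, whereas KPNA1, KPNA5, KPNA6, TNPO2 and IPO13 did not pass.

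Promoter sequences are shown for members that fell and members that did not pass, so that the letters can be read beside the values that follow: importin alpha genes that fell (KPNA2, KPNA3) and that did not pass (KPNA1, KPNA6), and nucleoporins of the inner ring (NUP188) and of the Y complex (NUP37). Each is the stretch just before the RefSeq transcript start, written 5′ to 3′ on the gene's strand. The build is GRCh38.p14, which differs from the hg19 of the expression table. Genes were picked by hand, and lengths were set gene by gene, at 100 bases for KPNA2, 110 for KPNA1, 79 for NUP188 and 80 for the others. Capitals mark matches on either strand to 6 motifs that were searched as exact letters. These were the CCAAT box, the cell cycle element known as CHR (TTTGAA), a first E2F form (written TTCCCGC), another E2F form (written TTGGCGC), the palindromic E-box (written CACGTG) and the motif of TEAD factors (written GGAATG). The coordinates are chr17:68035635-68035734 (plus) for KPNA2, chr13:49792683-49792762 (minus) for KPNA3, chr3:122514940-122515049 (minus) for KPNA1, chr1:32107976-32108055 (plus) for KPNA6, chr9:128947620-128947698 (plus) for NUP188 and chr12:102120115-102120194 (minus) for NUP37.
KPNA2: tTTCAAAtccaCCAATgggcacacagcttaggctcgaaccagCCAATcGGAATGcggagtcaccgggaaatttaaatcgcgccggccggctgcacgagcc
KPNA3: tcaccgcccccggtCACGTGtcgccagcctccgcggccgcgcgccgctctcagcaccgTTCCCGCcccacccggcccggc
KPNA1: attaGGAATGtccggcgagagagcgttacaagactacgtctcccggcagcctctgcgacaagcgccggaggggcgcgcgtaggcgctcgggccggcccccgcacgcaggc
KPNA6: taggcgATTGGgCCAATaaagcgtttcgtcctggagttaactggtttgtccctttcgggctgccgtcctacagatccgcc
NUP188: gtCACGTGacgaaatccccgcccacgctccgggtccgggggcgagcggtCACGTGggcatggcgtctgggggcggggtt
NUP37: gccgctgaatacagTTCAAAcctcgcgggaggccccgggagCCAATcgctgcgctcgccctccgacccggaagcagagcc

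Motif matches were counted in windows from 250 bases before to 50 bases after the start. RefSeq windows were matched for 41 of the 47 genes (53 windows, since some genes have several starts), and KPNA4, KPNA5, KPNA7, KPNB1, NUP43 and XPO7 had none. The CCAAT box was found in 49.1% of these windows and in 34.6% of all 35116 windows of the table. The CHR was in 22.6% of the members' windows against 15.2% of all, and the first E2F form in 20.8% against 6.55%. The other E2F form was in 5.66% against 3.04%, the E-box in 13.2% against 7.26%, and the TEAD motif in 17.0% against 14.0%. Of the 41 genes with windows, 34 fell. KPNA1, KPNA6, IPO13 and TNPO2 did not pass, and IPO4, NUP62CL and NUP210L were not tested. The first E2F form was in 10 of the 41 and in 8 of the 34, and the CCAAT box in 21 and 17. The CHR was in 10 and 10, and the other E2F form in 3 and 3. The E-box was in 7 and 5, and the TEAD motif in 9 and 7. Outside the 34, the first E2F form was in the untested NUP62CL and NUP210L alone. The CCAAT box was in these and in KPNA6 and TNPO2. The E-box was in the untested IPO4 and in TNPO2, and the TEAD motif in KPNA1 and IPO13. The 35116 windows were not limited to genes tested here, and differences in share were not tested. Windows of the same gene overlapped for NUP98, XPO4 and NUP210L, among others, so the same letters could count more than once. A match is a description of the letters and was not tested as a binding site. In the stretches printed above, KPNA2 holds the CCAAT box, the CHR and the TEAD motif. KPNA3 holds the E-box and the first E2F form, NUP188 the E-box, and NUP37 the CCAAT box and the CHR. KPNA1, which did not pass the expression test, also holds the TEAD motif, and KPNA6, which did not pass either, the CCAAT box. The KPNA1 TEAD match (position -106) and the KPNA2 CHR match (position -99) lie beyond the 80 bases printed for KPNA3, KPNA6 and NUP37.

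The Y complex is the scaffold unit of the outer rings. The 6 members grouped here as its subunits fell, beside 25.1% of all tested genes, with a median of -0.69 on the log2 scale. SEH1L, SEC13 and AHCTF1, Y complex partners outside the symbol pattern, are given further on, and of these SEC13 rose. NUP98, whose precursor also gives the Y subunit NUP96, was grouped with the channel nucleoporins. NUP107, a stem subunit of the Y (ENSG00000111581, hg19 chromosome 12, 69080514 to 69136785, plus strand), stood at 15.9 and 16.2 FPKM with vehicle and at 8.45 and 8.22 FPKM with MGH-CP1. The log2 difference was -0.87 ± 0.07 (limma, adjusted p = 9.8e-05), and each MGH-CP1 value was under each vehicle value. NUP85, in a short arm of the Y, went from 24.8 and 27.4 to 14.8 and 14.0 FPKM. NUP43, a beta-propeller subunit, went from 18.1 and 20.5 to 10.9 and 10.7 FPKM. Its gene span touches PCMT1 on the opposite strand by 223 bases, and PCMT1 averaged 48.9 FPKM, so its value is uncertain where reads were not counted by strand. NUP160 fell from 19.7 and 19.2 to 13.0 and 11.9 FPKM, and NUP37, whose promoter is shown above, from 11.7 and 11.4 to 8.36 and 7.84 FPKM. NUP133, which joins neighbouring Y complexes, changed least, from 19.3 and 20.6 to 15.2 and 16.4 FPKM (log2 fold change -0.32 ± 0.07; limma, adjusted p = 0.00897). Its call was lost without MGH-CP1 replicate 1 (log2 fold change -0.27; limma, adjusted p = 0.0823) and in none of the other alternatives. The summed level of the 6 genes was 110 and 115 FPKM in vehicle and 70.8 and 69.1 FPKM with MGH-CP1.

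The inner ring anchors the pore to the membrane and holds the channel nucleoporins. All 5 of its members fell, beside 25.1% of all tested genes, with a median of -0.70. NUP155 (ENSG00000113569, chromosome 5, 37288239 to 37371283, minus strand), a membrane-binding scaffold protein, had the largest change of all 43 tested genes. It stood at 26.9 and 28.8 FPKM in vehicle and 13.2 and 14.9 FPKM with MGH-CP1 (log2 fold change -0.94 ± 0.08; limma, adjusted p = 0.000124). Its MGH-CP1 mean was 50.4% of vehicle, and the groups did not overlap. The large paralogous scaffold proteins NUP188 and NUP205 moved by similar amounts. NUP188 went from 35.5 and 36.7 to 20.5 and 21.3 FPKM (log2 fold change -0.76 ± 0.06), and NUP205 from 45.4 and 48.2 to 27.5 and 29.1 FPKM (-0.70 ± 0.06). The NUP188 span touches SH3GLB2 on the opposite strand by 61 bases (19.7 FPKM). NUP93, the linker that recruits the channel proteins, went from 16.8 and 15.4 to 10.0 and 11.4 FPKM. NUP35, which also contacts the membrane, was the lowest of the tested nucleoporins, at 4.74 and 5.05 FPKM in vehicle and 2.82 and 2.50 FPKM with MGH-CP1. It rested on at least 120 reads per library (log2 fold change -0.69 ± 0.10; limma, adjusted p = 0.00145). Summed over the ring, the level went from 129 and 134 to 74.2 and 79.1 FPKM, which was 58.2% of vehicle.

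Channel nucleoporins form the permeability barrier through their phenylalanine-glycine repeats. All 4 fell, beside 25.1% of all tested genes, with a median of -0.54. NUPL1, now named NUP58, went from 15.3 and 17.0 to 8.79 and 9.05 FPKM (log2 fold change -0.79 ± 0.08; limma, adjusted p = 0.000233). Its channel partners NUP62 and NUP54 changed by less. NUP62 went from 25.4 and 24.5 to 16.8 and 16.3 FPKM (-0.56 ± 0.06; limma, adjusted p = 0.000417), and overlaps ATF5 on the opposite strand, at 10.9 FPKM. NUP54 went from 15.7 and 17.2 to 11.1 and 11.3 FPKM. NUP98, a mobile nucleoporin cut from a longer precursor shared with NUP96, changed least of the group, from 29.4 and 31.6 to 21.2 and 22.7 FPKM (-0.46 ± 0.07; limma, adjusted p = 0.00157), and touches PGAP2 on the opposite strand by 69 bases (5.63 FPKM).

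On the nuclear side of the pore, the basket protein NUP153, which binds incoming importin complexes, fell from 43.5 and 49.2 to 28.6 and 31.4 FPKM (log2 fold change -0.61 ± 0.08). NUP50, a basket partner that helps release importin alpha from its cargo, went from 25.6 and 24.7 to 16.0 and 17.3 FPKM (-0.57 ± 0.07). On the cytoplasmic side, where mRNA leaves and export complexes are taken apart, all 3 members fell, beside 25.1% of all tested genes. Their median was -0.44. NUPL2, now named NUP42 and a partner of the mRNA export factor GLE1, went from 5.97 and 6.55 to 4.44 and 3.87 FPKM (-0.50 ± 0.10). NUP88, a partner of NUP214, went from 28.0 and 30.2 to 21.0 and 21.2 FPKM, and shares 24872 bases of gene span with RABEP1 on the opposite strand (19.1 FPKM). NUP214, a docking site for export receptors, was the smallest change among nucleoporins, from 14.3 and 12.9 to 11.7 and 11.5 FPKM (-0.22 ± 0.07; limma, adjusted p = 0.0495). The NUP214 call was lost in 8 of 13 alternatives, among them each fit that left out vehicle replicate 1, MGH-CP1 replicate 1 or MGH-CP1 replicate 2 (limma, adjusted p up to 0.201). The membrane ring glycoprotein NUP210 went from 14.3 and 13.2 to 8.67 and 9.09 FPKM (-0.57 ± 0.07). Of the paralogs outside the pore lists, NUP62CL was at 0.781 to 1.09 FPKM across the 4 libraries, under the limit for testing, and NUP210L was listed at 0 in each.

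**Figure D2:**
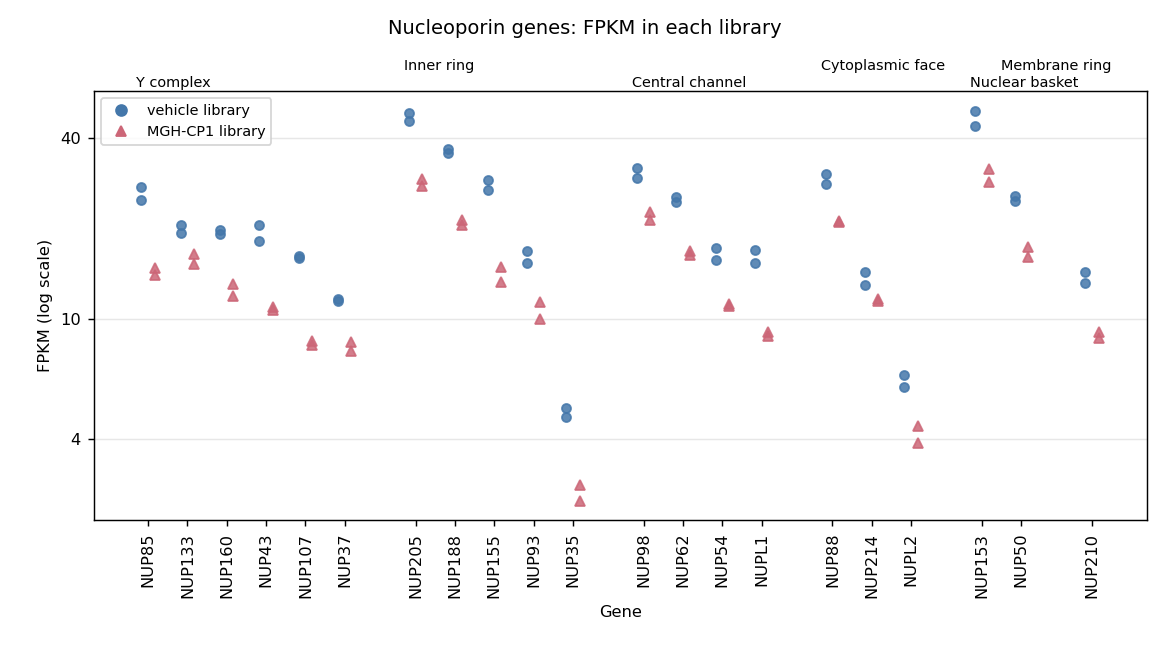
FPKM (log scale) of the 21 tested nucleoporin genes in each of the 4 libraries, ordered by position in the pore and then by vehicle level. Circles are vehicle and triangles MGH-CP1 libraries, and both triangles lie under both circles for every gene.

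Importin alpha proteins are the adaptors that bind nuclear localisation signals, and their genes did not change alike. KPNA2 (importin alpha 1; ENSG00000182481, chromosome 17, 66031635 to 66042958, plus strand) was the highest of all 47 genes, at 147 and 133 FPKM in vehicle and 80.6 and 81.2 FPKM with MGH-CP1. That fall was -0.78 ± 0.06 on the log2 scale (limma, adjusted p = 0.00012), and the groups did not overlap. KPNA3 and KPNA4, which form a closely related pair, fell by less. KPNA3 went from 20.6 in both vehicle libraries to 16.5 and 16.3 FPKM (-0.31 ± 0.06; limma, adjusted p = 0.00528), and KPNA4 from 16.4 and 16.8 to 14.2 and 14.4 FPKM (-0.20 ± 0.06; limma, adjusted p = 0.0363). The KPNA4 call was lost in 7 of 13 alternatives, among them each fit that left out vehicle replicate 2, MGH-CP1 replicate 1 or MGH-CP1 replicate 2 (limma, adjusted p up to 0.196).

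KPNA1, KPNA5 and KPNA6, which make up another importin alpha subfamily, did not pass. KPNA1 was at 14.9 and 15.9 FPKM in vehicle and 15.3 and 16.2 FPKM with MGH-CP1, so the groups overlapped (log2 difference 0.03; limma, adjusted p = 0.738; 95% interval -0.13 to 0.19). KPNA6 was at 23.9 and 24.2 against 24.4 and 26.2 FPKM (0.07; limma, adjusted p = 0.404; 95% interval -0.08 to 0.22). KPNA5 was near the limit for testing, at 1.03 and 0.749 against 1.27 and 1.20 FPKM, with a wide interval of -0.08 to 0.58 (limma, adjusted p = 0.186). A value that misses the threshold does not show that these genes were the same in both groups, but the intervals of KPNA1 and KPNA6 hold no fall as large as that of KPNA2. KPNA7, known from oocytes and early embryos, had 1 read in each vehicle library and 6 and 9 reads with MGH-CP1, and was not tested.

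Within the summed importin alpha transcripts, KPNA2 supplied 65.6% and 63.0% of the summed importin alpha FPKM with vehicle and 52.9% and 52.1% with MGH-CP1. KPNA6 was at 10.7% and 11.4% in vehicle and 16.0% and 16.8% with MGH-CP1, and KPNA1 at 6.67% and 7.51% against 10.0% and 10.4%. None of these shares overlapped between groups. As parts of the same sum the shares are not independent, since a smaller KPNA2 part leaves a larger part to the others. In FPKM, KPNA1 overlapped between groups. With 2 libraries against 2, the exact two-sided permutation test cannot go below p = 0.333, which each of these 3 shares gave. The summed level was 223 and 212 FPKM in vehicle and 153 and 156 FPKM with MGH-CP1. Leaving out KPNA2, the log2 ratio of the sums was -0.08 instead of -0.50. KPNA2 per unit of KPNB1, the receptor that carries importin alpha, was 1.23 and 1.07 in vehicle and 1.05 and 1.07 with MGH-CP1, so this ratio overlapped between groups.

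**Figure D3:**
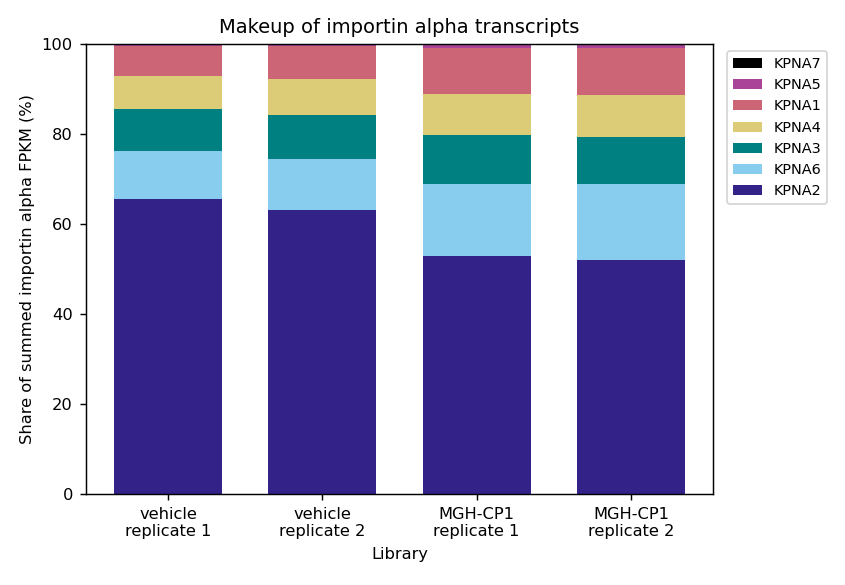
Share of each importin alpha gene in the summed importin alpha FPKM (vertical axis, percent) in each of the 4 libraries. The KPNA2 share is 65.6% and 63.0% under vehicle and 52.9% and 52.1% under MGH-CP1.

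Importin beta and its relatives carry cargo through the channel themselves. Of the 10 tested genes 8 fell, beside 25.1% of all tested genes, with a median of -0.44 over the 10. KPNB1, the importin beta that pairs with importin alpha (ENSG00000108424, chromosome 17, 45726842 to 45762871, plus strand), stood at 119 and 125 FPKM in vehicle and 76.6 and 75.9 FPKM with MGH-CP1 (-0.67 ± 0.06; limma, adjusted p = 0.000128). IPO5, a carrier of ribosomal proteins and histones, went from 62.6 and 64.9 to 38.7 and 39.9 FPKM, the largest change of the group (-0.69 ± 0.06; limma, adjusted p = 0.000122). IPO7, which also carries ribosomal proteins, went from 61.3 and 67.0 to 43.2 and 44.0 FPKM. IPO9, a histone carrier, went from 16.6 and 17.0 to 10.6 and 11.3 FPKM. IPO11, a carrier of ubiquitin-conjugating enzymes, went from 15.5 and 17.3 to 10.7 and 11.3 FPKM, and shares 133278 bases of gene span with KIF2A on the same strand (21.4 FPKM), so its value is uncertain. These 5 genes were each at 61.6% to 68.0% of vehicle.

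Smaller falls were seen in IPO8, a paralog of IPO7, and in the transportins TNPO1 and TNPO3. IPO8 went from 19.6 and 19.9 to 17.1 and 16.7 FPKM (-0.22 ± 0.06; limma, adjusted p = 0.0235). TNPO1, which imports RNA-binding proteins, went from 27.4 and 30.6 to 22.5 and 23.0 FPKM (-0.34 ± 0.07), and TNPO3, which imports SR splicing factors, from 28.4 and 30.5 to 24.5 and 25.1 FPKM (-0.24 ± 0.06). The IPO8 and TNPO3 calls were lost without either MGH-CP1 library and under quantile or upper-quartile scaling (limma, adjusted p up to 0.155 and 0.124). TNPO3 was also lost with no filter, and TNPO1 without MGH-CP1 replicate 1 alone (limma, adjusted p = 0.0504). TNPO2, a close paralog of TNPO1, was at 38.7 and 39.5 FPKM in vehicle and 38.4 and 38.2 FPKM with MGH-CP1 (log2 difference -0.03; limma, adjusted p = 0.704; 95% interval -0.16 to 0.10). IPO13, which can carry cargo in both directions, was at 14.6 and 14.4 FPKM in vehicle and 15.8 and 17.3 FPKM with MGH-CP1 (0.18; limma, adjusted p = 0.0786). It was the member that became a rise under quantile normalization (0.24; limma, adjusted p = 0.0284) and upper-quartile scaling (0.24; limma, adjusted p = 0.0259), and its adjusted p reached 0.432 in another alternative. IPO4 had at most 2 reads assigned in a library and was not tested. For IPO4, no overlapping gene averaging 0.5 FPKM or more was listed. How reads were assigned to genes is not given, so the low IPO4 count does not show that the transcript was absent.

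All 6 exportins fell, beside 25.1% of all tested genes, with a median of -0.49. XPO1, the exportin for proteins with leucine-rich export signals (ENSG00000082898, chromosome 2, 61704984 to 61765761, minus strand), went from 50.5 and 53.9 to 36.1 and 37.1 FPKM (-0.50 ± 0.06; limma, adjusted p = 0.00063). An antisense gene over 6282 bases of its span averaged 5.06 FPKM. XPO5, the exportin of pre-miRNA hairpins, changed most on the log2 scale of FPKM + 1, from 39.0 and 40.3 to 24.5 and 24.6 FPKM (-0.67 ± 0.06; limma, adjusted p = 0.000139). It shares 7252 bases of span with POLR1C on the opposite strand, at 13.7 FPKM. XPOT, the tRNA exportin, went from 36.0 and 36.3 to 26.1 and 25.3 FPKM, and XPO4 from 4.64 and 4.87 to 2.89 and 2.80 FPKM (-0.58 ± 0.09). In FPKM without the added 1, XPO4 fell further than XPO5, to 59.9% of vehicle beside 61.9%. XPO6, which exports actin with profilin, went from 38.7 and 39.3 to 30.5 FPKM in both MGH-CP1 libraries (-0.35 ± 0.05). XPO7 had the smallest change, from 31.2 and 32.2 to 28.0 FPKM in both (-0.17 ± 0.06; limma, adjusted p = 0.0405). Its call was lost in 7 of 13 alternatives, among them each fit that left out vehicle replicate 2, MGH-CP1 replicate 1 or MGH-CP1 replicate 2 (limma, adjusted p up to 0.2).

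**Figure D4:**
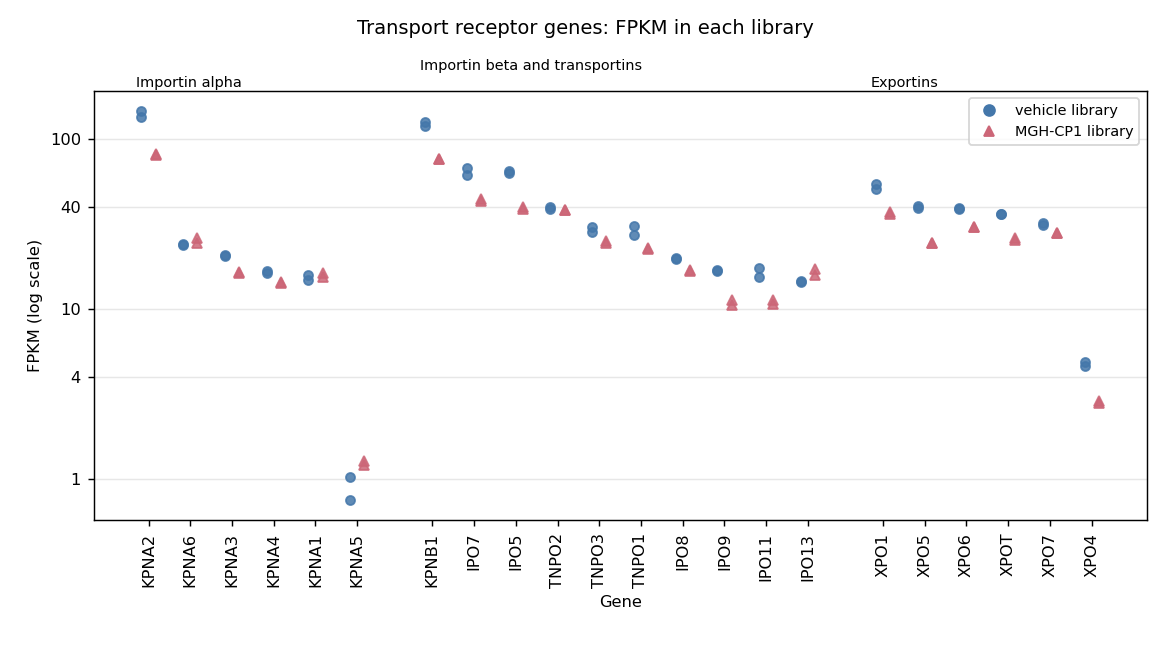
FPKM (log scale) of the 22 tested transport receptor genes in each of the 4 libraries, ordered by family and then by vehicle level. Circles are vehicle and triangles MGH-CP1 libraries. KPNA2 and KPNB1 are the highest, and the symbols of KPNA1 overlap.

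Genes of the same machinery that the symbol pattern misses were read from 4 lists of 58 genes. Of the 56 tested, 31 fell (55.4%, beside 25.1% of all tested genes) and 4 rose, where 20.0% of all tested genes rose. Their median was -0.27, and SARNP and SYNE1 were under the limit for testing. Among 11 other pore proteins 7 fell (63.6%) and 1 rose. TMEM48, which encodes the membrane nucleoporin NDC1, went from 26.6 and 30.0 to 13.0 and 13.9 FPKM (-1.02 ± 0.08), and RAE1, an mRNA export partner of NUP98, from 10.8 in both vehicle libraries to 5.32 and 5.26 FPKM (-0.90 ± 0.07). Y complex partners went both ways. AHCTF1, which also joins the Y complex, fell from 21.6 and 24.9 to 16.8 and 17.2 FPKM (-0.43 ± 0.08; limma, adjusted p = 0.00412). SEH1L, a Y complex subunit, fell (-0.78 ± 0.06), but SEC13, which serves both the Y complex and the vesicle coat COPII, rose from 49.0 and 47.9 to 56.0 and 54.9 FPKM (0.19 ± 0.05; limma, adjusted p = 0.0246). The SEC13 rise was lost without either MGH-CP1 library and without the mean-variance trend (limma, adjusted p up to 0.181). RANBP2, the large cytoplasmic filament protein whose reads may be split with its close RGPD paralogs, overlapped between groups at 17.5 and 19.4 against 17.0 and 18.7 FPKM. TPR, the main filament protein of the nuclear basket, was at 36.0 and 41.5 against 32.2 and 35.1 FPKM (log2 difference -0.20 ± 0.08; limma, adjusted p = 0.0902) and did not pass. It was called lower in 3 alternatives: voom on recovered reads (limma, adjusted p = 0.0398), the fit with the replicate block (0.0302) and the fit without vehicle replicate 1 (-0.30, 0.00561), and its adjusted p reached 0.387 without MGH-CP1 replicate 1. AHCTF1, SEH1L, SEC13, RANBP2 and TPR were chosen after their values were seen.

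Of 12 Ran cycle and cofactor genes 8 fell (66.7%) and 4 did not pass, with a median of -0.38. Of all tested genes, 25.1% fell and 20.0% rose. RANBP1, a cofactor of Ran GTP hydrolysis, went from 55.1 and 50.6 to 24.9 and 23.1 FPKM (-1.11 ± 0.07), with 1455 bases of span shared with TRMT2A on the opposite strand (9.75 FPKM). RANGAP1, the Ran GTPase activating protein, went from 104 and 103 to 55.9 and 57.5 FPKM (-0.86 ± 0.05). RAN itself went from 108 and 106 to 69.7 and 67.1 FPKM, and CSE1L, the exportin that returns importin alpha to the cytoplasm, from 169 and 175 to 99.9 and 111 FPKM. Both were named after their values were seen. In the mRNA export list 10 of 19 tested genes fell (52.6%) and 1 rose, beside 25.1% and 20.0% of all tested genes. ALYREF, an adaptor for the export receptor, went from 99.8 and 86.4 to 47.5 and 50.3 FPKM (-0.91 ± 0.08), and THOC6 from 24.4 and 19.9 to 13.9 and 13.0 FPKM. Both overlap an opposite-strand gene (ANAPC11 at 32.2 FPKM and HCFC1R1 at 39.9 FPKM), so their values are uncertain. The gene that rose was DDX39B, an export helicase, from 4.93 and 5.40 to 7.85 FPKM in both MGH-CP1 libraries (0.52 ± 0.08; limma, adjusted p = 0.0022).

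In the nuclear lamina and inner membrane list 6 of 14 tested genes fell and 2 rose, beside 25.1% and 20.0% of all tested genes. LMNB1, a B-type lamin, went from 39.0 and 36.8 to 12.3 and 12.4 FPKM (-1.54 ± 0.06; limma, adjusted p = 1.47e-05), and TMPO, a lamina-associated protein, from 67.2 and 73.3 to 29.1 and 30.1 FPKM (-1.22 ± 0.06). LMNA, the A-type lamin, named after its values were seen, rose from 357 and 335 to 516 and 493 FPKM (0.54 ± 0.07; limma, adjusted p = 0.000709). SUN2, the other gene that rose (0.28 ± 0.07), shares span with GTPBP1 and DNAL4 (12.5 and 5.18 FPKM) and lost its call without either MGH-CP1 library and with no filter (limma, adjusted p up to 0.0809).

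**Figure D5:**
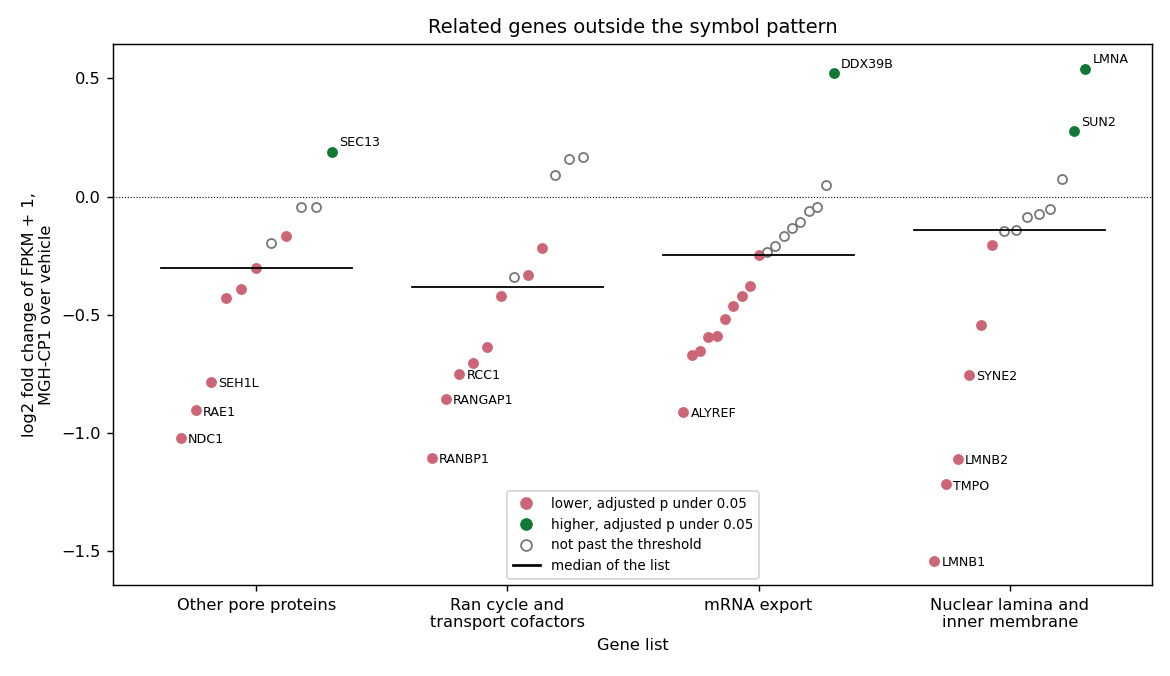
Log2 fold change of FPKM + 1 (vertical axis) of the 56 tested genes in 4 related lists. Coloured points passed an adjusted p under 0.05, and black lines mark list medians. LMNB1 is the lowest point (-1.54) and LMNA the highest (0.54).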

How the data were processed

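The authors deposited 1 table of FPKM values for 48162 genes in 4 libraries, on hg19; the submitters' processing notes name CASAVA 1.8 and STAR, with no order. How reads were counted, whether by strand, and on which annotation is not given in the sources used here. Multiplied by gene length, all FPKM values above 0 were whole multiples of 1 read (within 0.001). This gave each library's total of reads assigned to genes.

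Genes averaging 1 FPKM or more over the 4 libraries were fitted as log2(FPKM + 1) in limma 3.58.1 (R 4.3.3) with a mean-variance trend, group as the only term and Benjamini-Hochberg adjustment over 11790 genes, after a test on simulated data. Log2 values understate changes of low genes. The 13 alternatives changed the pseudocount (0.1, 5), filter (none, 5 FPKM), scaling, trend, voom on recovered reads, replicate block, or left out 1 library. Overlaps between genes were read from whole gene spans, and only partners averaging 0.5 FPKM or more were listed.

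Members, lists and tests were chosen with earlier results of these data known. Named genes were KPNA2, KPNB1, XPO1, NUP62 and NUP107, the 10 largest changes, the extremes of each role group and the 2 largest called changes per related list. Other genes are values of members or were named after their values were seen. A comparison of protein sequences was not made. Tables and plots used Python 3.11.15, pandas 2.3.3 and matplotlib 3.10.9.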

Additional observations from a re-analysis of the deposited data

How the results depend on the processing

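Of 38 members called lower, 31 (19 nucleoporins and 12 receptors) were called lower under every alternative that tested them. The other 7 were NUP133, NUP214, KPNA4, IPO8, TNPO1, TNPO3 and XPO7. A filter at 5 FPKM left NUP35, XPO4 and KPNA5 untested. Among all tested genes, 2956 were called lower in the main fit. Under the alternatives with all libraries this ranged from 2033 (no filter on low values) to 3153 (voom on recovered reads). How many of the 2956 kept their call under every alternative is not given here, so the members' stability cannot be set beside that of other genes. Members called lower numbered 33 to 38 under the 9 alternatives with all libraries and 31 to 37 when 1 library was left out. Members called higher were 1 (IPO13) under quantile normalization, 1 under upper-quartile scaling and 0 otherwise. Related genes called higher numbered 4, with 5 under quantile normalization and under upper-quartile scaling, 3 with no filter and with no mean-variance trend, and 2 to 4 when 1 library was left out. Over all genes, 2355 were called higher, 1568 with no filter on low values and 1460 to 2556 without 1 library. KPNA1 went from 0.0316 to -0.0067 without MGH-CP1 replicate 2 and -0.0131 without vehicle replicate 1, within a range of -0.0131 to 0.0763 when 1 library was left out. TNPO2 went from -0.03 to 0.0252 with quantile normalization and 0.0419 with upper-quartile scaling. Log2 ratios of summed FPKM under upper-quartile scaling were -0.61 for the Y complex, -0.52 for the channel, -0.34 for the cytoplasmic face, -0.42 for importin alpha, -0.39 for importin beta and transportins and -0.39 for exportins, against -0.69, -0.59, -0.41, -0.50, -0.47 and -0.46. Without the highest member they were -0.65 for the channel, -0.34 for the cytoplasmic face, -0.0819 for importin alpha and -0.39 for importin beta and transportins.

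The labels number the libraries 1 and 2 in both groups and do not say whether a shared number stands for a shared batch or culture. Deviations of same-numbered libraries correlated at 0.05 over genes, which cannot decide this with 2 libraries per group. With the replicate block 38 members were lower and 0 higher, and over all genes 3036 were lower and 2453 higher.

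With 2 libraries per group, small changes rest on few values. Strand and exon overlap were not resolved.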

Other observations

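Among the rows that share these gene names but are not typed as protein-coding, 10 pseudogenes and 1 antisense gene were listed. Their values were at most 0.207 FPKM in any library (TNPO1P1), so few reads were assigned to annotated copies of these genes.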
